A study of Rattus norvegicus with 9 samples.

Results

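Nitric oxide synthases and the endothelin system are 9 genes here, Nos1, Nos2, Nos3, Edn1, Ece1, Ednra, Ednrb, Npr1 and Npr3. Members were the gene probes whose name in the array files equals one of these symbols. This gave 12 probes of 9 genes, among 30367 gene probes of 26115 gene names. The rule used no measured value. Each array measured total RNA from the tissue of 1 kidney of a rat donor of the F344 strain, on a single-colour Agilent array. Nonperfused (NP) kidneys, 5 in number, had 20 min of warm ischaemia. MSC kidneys, 4 in number, had equal ischaemia, after which Belzer solution (BS) with mesenchymal stromal cells (MSC; 3000000 cells) was pumped through them in the cold (4°C) for 4 hrs. The MSC were expanded in culture from the bone marrow of Sprague Dawley rats that carry a green fluorescent protein transgene, so they came from another strain than the kidneys. The groups therefore differ in perfusion as well as in MSC, and both cannot be told apart. For the NP kidneys the treatment label says that they were not perfused, whereas their titles name 4 hrs of perfusion with BS, and the name NP follows the treatment label and the methods of the study. A further MSC array, which the study discarded for poor quality, was not analysed here.

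Nitric oxide synthases make nitric oxide from arginine. Nos3 is the endothelial enzyme, Nos1 the neuronal enzyme that the macula densa also uses, and Nos2 the enzyme induced by inflammatory signals. Nitric oxide relaxes vascular smooth muscle through soluble guanylate cyclase and cyclic GMP. Edn1 encodes the precursor of endothelin 1, a strong vasoconstrictor that Ece1, a membrane metalloprotease, cuts into its active form. Ednra, the type A receptor, constricts vessels and the mesangium, while Ednrb, the type B receptor, is found on endothelium and on collecting duct cells, where it favours salt and water loss. Npr1 is the receptor guanylate cyclase for atrial natriuretic peptide, and Npr3 clears natriuretic peptides from the circulation.

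The sequences of 5 probes are shown because they decide which transcript was read. The Nos3 probe, which starts at base 3454 of its transcript, is the only synthase probe that passed the filter on low signal. The Nos1 probes, which start at bases 3967 and 2951, were not well above background on any array, so their targets are printed too.
Nos3 A_44_P198620: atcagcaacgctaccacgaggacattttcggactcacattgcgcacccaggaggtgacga
Nos1 A_44_P473047: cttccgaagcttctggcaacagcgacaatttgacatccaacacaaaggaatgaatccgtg
Nos1 A_64_P105620: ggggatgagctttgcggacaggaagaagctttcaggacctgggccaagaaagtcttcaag

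The receptors Ednra and Ednrb are close relatives, and 1 probe of each was placed over the same conserved stretch. Capitals mark the bases that both probes share when aligned without gaps.
Ednra A_64_P158422: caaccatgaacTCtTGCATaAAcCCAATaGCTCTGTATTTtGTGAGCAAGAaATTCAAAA
Ednrb A_64_P004974: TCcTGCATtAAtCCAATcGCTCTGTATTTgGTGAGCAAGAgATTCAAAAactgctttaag
Of 49 aligned bases 43 were identical (87.8%), and the longest identical run was 11 bases. Signal of one receptor on the probe of the other was not tested, so the dim Ednra value of this probe is uncertain. The other Ednra probe, A_64_P109657, lies further along the transcript, starting at base 4535.

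Values are log2 intensities of the spot, without background subtraction, normalized between arrays by cyclic loess. A probe passed the filter when its value exceeded a limit on at least 4 arrays. The limit, 8.71 to 8.77 depending on the array, was 1.1 times the value (log2) that 95% of negative controls stayed under. It kept 15841 probes. Of the 12 member probes, 6 passed (Nos3, both Ece1 probes, Ednrb, Npr1 and Npr3), so 5 of 9 genes were tested among the filtered probes. Edn1, Nos2 and both Ednra probes are given from the fit of all 30367 probes. The median raw intensity of gene spots was 577 to 917 per array, against 217 to 237 for the negative controls, and 65.6% to 74.3% of gene spots were well above background. The arrays sat on 2 slides, the first with NP replicates 1, 2 and 3 and MSC replicates 1 and 2, the second with the rest. Precision is limited by how few arrays there are. As these are bulk samples, fewer cells of a type and less RNA per cell cannot be told apart. Levels of different probes are not set against each other as results.

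No member probe differed between MSC and NP samples past the thresholds of an FDR of 0.05 and a fold change of 1.5 in limma, and 0 of the 6 filtered member probes had an unadjusted p under 0.05. Across all 15841 filtered probes 0% passed the thresholds, and 11.7% had an unadjusted p under 0.05. In the fit of all gene probes, where 0 of the 4 dim probes that were measured had such a p, the share was 8.79%. The study, which kept 1 probe per gene, reported Tmem52b and Calb1 as higher in MSC kidneys at the same FDR and fold change thresholds. Here the fit with 1 probe per gene gave 0 calls, and the reason for the difference was not tested. For the 10 probes that were well above background on at least 1 array, the log2 fold changes of MSC over NP ran from -0.40 to -0.02, with a median of -0.08 against -0.0025 over all gene probes. All 10 were negative, where 51.3% of all probes were. These probes share arrays and are not independent, and 5 of them turned positive under at least 1 alternative. The 95% interval included 0 for 10 of 10 and the ranges of the groups overlapped for 10 of 10, while 5.28% of the filtered probes and 3.52% of all probes had groups that did not overlap.

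**Figure D1:**
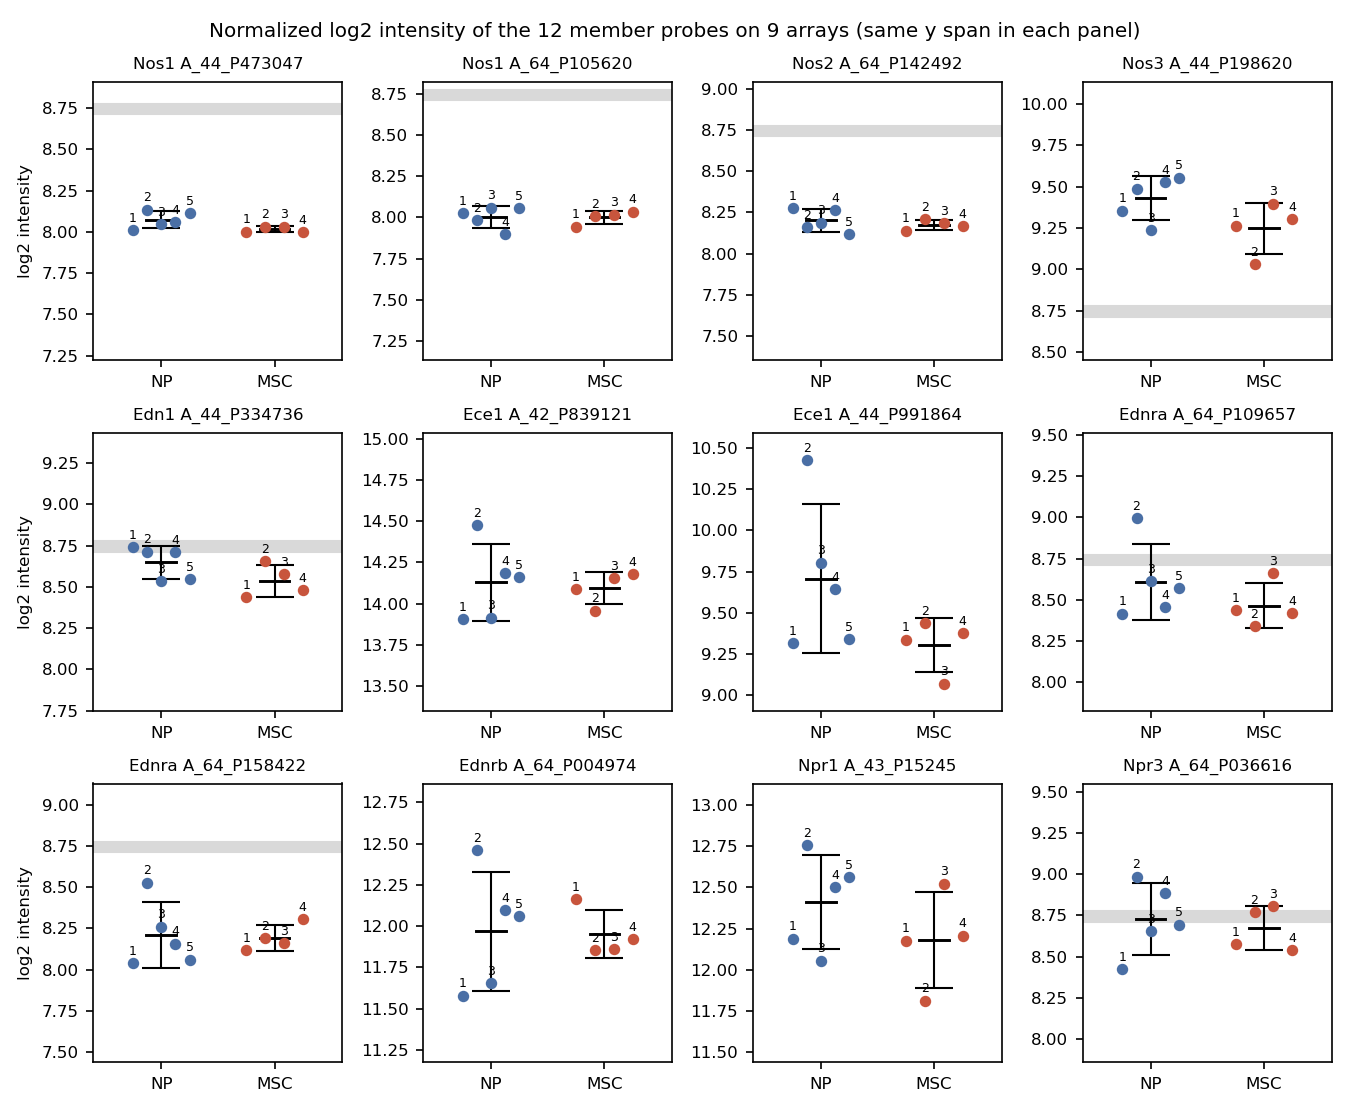
Normalized log2 intensity of each of the 12 member probes (y axis, same span in every panel) in NP (blue) and MSC (red) kidneys, 1 point per array with its replicate number. Thick lines are means, error bars SD, and the grey band is the range of the filter limit over the arrays. The groups overlap in every panel, and NP replicate 2 is the highest array in 8 of 12.

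Nos3, the endothelial synthase, was read by 10 spots of 1 probe on the minus strand of chromosome 4 (6159286 to 6159345, build rn4). Its log2 intensity was 9.36, 9.49, 9.24, 9.53 and 9.55 in NP replicates 1 to 5 and 9.26, 9.03, 9.40 and 9.30 in MSC replicates 1 to 4. Each of the 4 MSC samples was below the NP median of 9.49, and 3 of them lay inside the NP range. The means were 9.43 ± 0.13 (SD, n = 5) in NP and 9.25 ± 0.16 (SD, n = 4) in MSC samples. The log2 fold change was -0.18 (95% interval -0.41 to 0.04), a fold change of 0.880 (0.753 to 1.03) at an FDR of 0.505 from limma. With all exact permutations of the group labels the two-sided p was 0.0952, where 0.00794 is the smallest possible. The difference passed neither test.

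Among the 6 filtered member probes, Nos3 was the only 1 with an unadjusted p under 0.05 once slide or array quality entered the model. Of all 15841 filtered probes, 1998 had such a p with a slide block, and 2594 with a weight for each array. With a slide block the log2 fold change of Nos3 became -0.20, at an unadjusted p of 0.0340 and an FDR of 0.361 from limma. It was -0.21 within the first slide and -0.19 within the second. With a weight for each array it was -0.25, at an unadjusted p of 0.0242 and an FDR of 0.240. Without MSC replicate 2, the lowest sample, it was -0.11. On the background-subtracted signal it was -0.30 at an FDR of 0.431, and with normexp background correction -0.22 at an FDR of 0.503.

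The other synthases were at or near background. Neither Nos1 probe was well above background on any of the 9 arrays, and both give only a bound, so no fold change is given. Probe A_44_P473047, on chromosome 12 from 39810923 to 39810982, read at most 8.14. Probe A_64_P105620, on chromosome 12 from 39815023 to 39815082, read at most 8.06. The 95th percentile of the negative controls was 7.92 to 7.98. Nos2, on chromosome 10 from 65072394 to 65072453, was well above background on 3 of 5 NP and 1 of 4 MSC arrays. It read 8.28, 8.16, 8.19, 8.26 and 8.12 in NP replicates 1 to 5 and 8.14, 8.21, 8.19 and 8.17 in MSC replicates 1 to 4. All 4 MSC samples lay within the NP range, and the log2 fold change was -0.03 (95% interval -0.13 to 0.08; FDR 0.909 from limma), and -0.13 on the background-subtracted signal. It was -0.0072 without NP replicate 1 and -0.046 without NP replicate 5. A difference in Nos1 was not detectable at this signal.

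**Figure D2:**
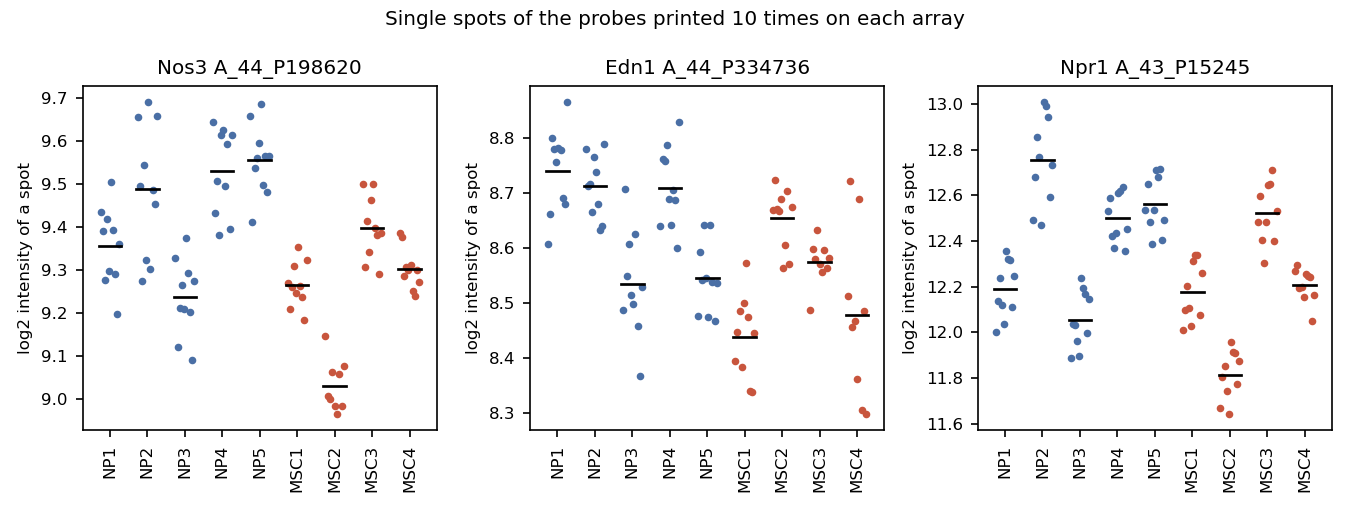
Log2 intensity of each spot (y axis) of the Nos3, Edn1 and Npr1 probes on each array (x axis), NP blue and MSC red, with the array mean as a line. Spots of an array scatter over a median SD of 0.081 for Nos3, 0.073 for Edn1 and 0.12 for Npr1, and MSC replicate 2 has the lowest mean for Nos3 and Npr1.

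The probes of Nos3, Edn1 and Npr1 were each printed 10 times on an array, so that the scatter of spots can be set beside the spread between arrays, as the plot of single spots shows. For Nos3 the median SD of the spots was 0.081, which gives an array mean an error of 0.026. The SD between arrays was 0.13 in NP and 0.16 in MSC samples. For Npr1 the spots had a median SD of 0.12, and the arrays one of 0.28 in NP and 0.29 in MSC samples. The 2 spots of Ednrb had a median SD of 0.022 against 0.36 between the NP arrays. For Edn1 the array mean had an error of 0.023 from its spots, and the SD between arrays was 0.10 in both groups. The spread between arrays also holds labelling and hybridisation, which cannot be told apart from the kidneys here.

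Edn1, the endothelin 1 precursor, was well above background on all 9 arrays but above the filter limit on 1. Its probe lies on chromosome 17 from 28304023 to 28304082 on the minus strand. The log2 intensity was 8.74, 8.71, 8.53, 8.71 and 8.55 in NP replicates 1 to 5 and 8.44, 8.65, 8.57 and 8.48 in MSC replicates 1 to 4. The MSC samples were all below the NP median of 8.71, and 2 of them were below every NP sample. Between the groups this was a log2 fold change of -0.11 (95% interval -0.26 to 0.04), a fold change of 0.925 at an FDR of 0.696 from limma. The exact two-sided permutation p was 0.135. On the background-subtracted signal it came to -0.31 (FDR 0.700).

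Ece1, the converting enzyme, was read by 2 probes that did not give the same value. A_42_P839121 lies on chromosome 5 from 156737298 to 156737357, at base 4333 of the transcript. It read 13.91, 14.48, 13.92, 14.19 and 14.16 in NP replicates 1 to 5 and 14.09, 13.96, 14.15 and 14.18 in MSC replicates 1 to 4. All 4 MSC samples lay within the NP range, and the log2 fold change was -0.03 (95% interval -0.31 to 0.24; FDR 0.934 from limma).

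A_44_P991864 lies on chromosome 5 from 156735668 to 156735727, at base 2668 of the transcript. It read 9.32, 10.42, 9.80, 9.64 and 9.34 in NP replicates 1 to 5 and 9.34, 9.44, 9.07 and 9.38 in MSC replicates 1 to 4. NP replicate 2 stood above all others, and NP replicates 1 and 5 were at the level of the MSC samples. The log2 fold change was -0.40 (95% interval -0.87 to 0.07), the most negative of the member probes, or 0.758-fold (FDR 0.490 from limma). The exact two-sided permutation p was 0.135. Leaving out NP replicate 2 gave -0.22 (FDR 0.589 from limma). On the background-subtracted signal it was -0.60 at an FDR of 0.463. The difference between the 2 probes was not tested.

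**Figure D3:**
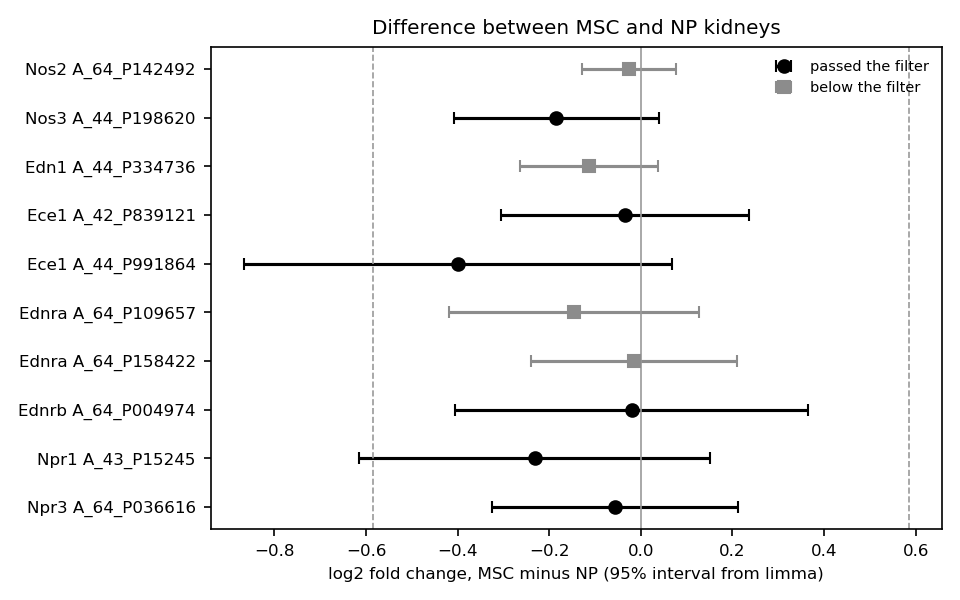
Log2 fold change of MSC over NP samples (x axis) with its 95% interval from limma, for the 10 member probes that were well above background on at least 1 array. Black circles passed the filter, grey squares did not, and dashed lines mark a fold change of 1.5. Every interval includes 0.

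Ednra, the constrictor receptor, was dim on both probes. A_64_P109657, on chromosome 19 from 32108094 to 32108153, was well above background on 5 of 5 NP and 3 of 4 MSC arrays. It read 8.42, 8.997, 8.61, 8.46 and 8.57 in NP replicates 1 to 5 and 8.44, 8.34, 8.66 and 8.42 in MSC replicates 1 to 4. Only NP replicate 2 was above the filter limit, and the log2 fold change was -0.15 (95% interval -0.42 to 0.13; FDR 0.789 from limma). It was -0.049 without NP replicate 2 and -0.48 on the background-subtracted signal (FDR 0.738). A_64_P158422, the probe in the stretch conserved with Ednrb, was well above background on 3 of 5 NP and 1 of 4 MSC arrays. It lies on chromosome 19 from 32102982 to 32103041 and read 8.04 to 8.53 in NP and 8.12 to 8.30 in MSC samples. The log2 fold change was -0.02 (95% interval -0.24 to 0.21; FDR 0.977 from limma), and -0.43 with a standard error of 0.49 on the background-subtracted signal (FDR 0.848).

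Ednrb, the type B receptor, was read on chromosome 15 from 87896574 to 87896633 and was well above background on all arrays. Its log2 intensity was 11.58, 12.46, 11.66, 12.09 and 12.06 in NP replicates 1 to 5 and 12.16, 11.86, 11.86 and 11.92 in MSC replicates 1 to 4. The NP kidneys held both the highest and the lowest values, and all 4 MSC samples lay between them. The means were 11.97 ± 0.36 (SD, n = 5) in NP and 11.95 ± 0.15 (SD, n = 4) in MSC samples, a log2 fold change of -0.02 (95% interval -0.41 to 0.36; FDR 0.973 from limma). It was 0.11 within the first slide and -0.19 within the second.

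Npr1, the receptor for atrial natriuretic peptide, was read by 10 spots of 1 probe on chromosome 2 from 182724916 to 182724975. Its log2 intensity was 12.19, 12.75, 12.06, 12.50 and 12.56 in NP replicates 1 to 5 and 12.18, 11.81, 12.52 and 12.21 in MSC replicates 1 to 4. MSC replicate 2 was the lowest of all samples, and the other 3 lay inside the NP range. The log2 fold change was -0.23 (95% interval -0.62 to 0.15), a fold change of 0.851 at an FDR of 0.619 from limma, and the exact two-sided permutation p was 0.278. Without MSC replicate 2 the log2 fold change was -0.11. It was -0.34 within the first slide and -0.17 within the second.

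Npr3, the clearance receptor, was above the filter limit on 4 arrays, just enough to pass. The probe lies on chromosome 2 from 61278264 to 61278323. The log2 intensity was 8.42, 8.98, 8.66, 8.88 and 8.69 in NP replicates 1 to 5 and 8.58, 8.77, 8.80 and 8.54 in MSC replicates 1 to 4. All 4 MSC samples lay within the NP range, with a log2 fold change of -0.06 (95% interval -0.32 to 0.21; FDR 0.887 from limma), and of -0.13 on the background-subtracted signal.

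NP replicate 2 was the highest of the 9 arrays for 8 of 12 member probes, and for 5 of the 6 that passed the filter. It was the highest for 22.7% of all gene probes and for 28.6% of the filtered ones. No MSC array was the highest for any member probe, where the MSC arrays were for 39.2% of all gene probes and 35.5% of the filtered ones. NP replicate 1 was the lowest for 4 of 12 member probes, and for 18.9% of all gene probes. For Ednrb these 2 arrays, both on the first slide, lay at the ends of the range, at 12.46 and 11.58. By Dixon's test at the 95% level, 0 of the 24 groups of member values held an array that stood apart, where chance gives about 1 in 20 groups, or 1.2. When limma weighted each array by its scatter, NP replicates 2 and 1 had the lowest weights, 0.287 and 0.333, against 0.863 to 2.11 for the other 7. Without NP replicate 2, the log2 fold changes of 4 member probes became positive, 0.05 for Ece1 A_42_P839121, 0.06 for Ednra A_64_P158422, 0.10 for Ednrb and 0.01 for Npr3.

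**Figure D4:**
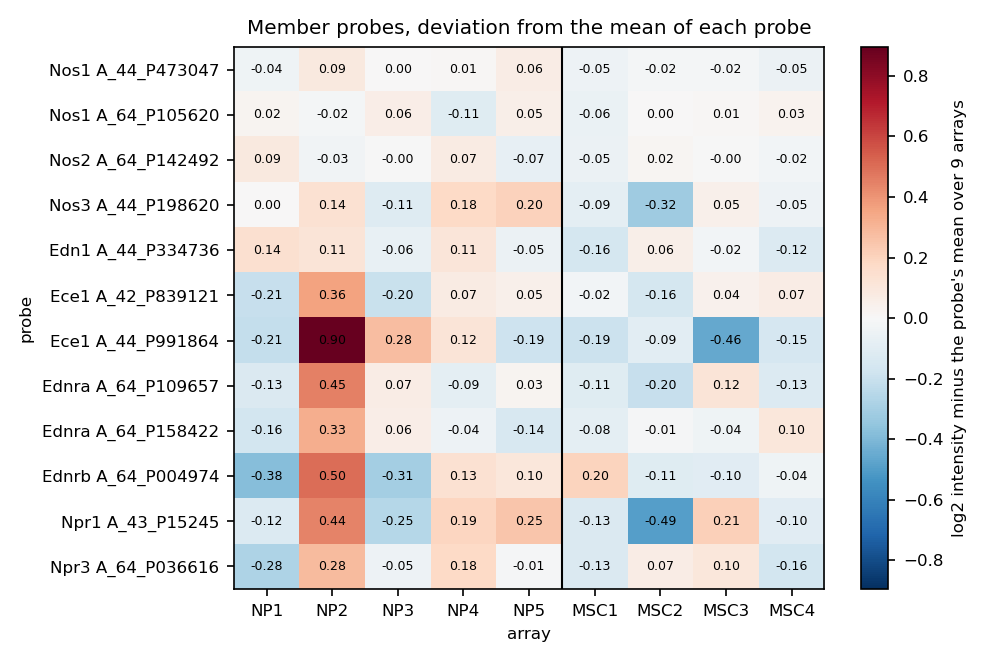
Log2 intensity of each member probe (rows) on each array (columns) minus the probe's mean over the 9 arrays, red above and blue below, with the value in each cell. The column of NP replicate 2 holds the highest values of Ece1, Ednra, Ednrb, Npr1 and Npr3, up to 0.90 for Ece1 A_44_P991864.

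Marker lists of kidney cell types were set beside these values. A list's score is the mean, over its filtered probes, of the log2 intensity minus the probe's mean over the arrays. All 6 proximal tubule genes and all 6 principal cell genes passed the filter, so genes that define kidney tubules were measured. In NP replicate 2 the list of smooth muscle and mesangium had its highest score, 0.72, and the principal cell list its lowest, -0.57. In NP replicate 1 the smooth muscle list had its lowest score, -0.41, and so had the endothelial list, -0.29. Of the endothelial list 8 of 10 genes passed, and its score overlapped between the groups, at -0.29 to 0.14 in NP and -0.23 to 0.23 in MSC samples. Its median log2 fold change was 0.02. Of its 9 filtered probes 2 were lower at an unadjusted p under 0.05, both of Vwf, von Willebrand factor, at -0.23 and -0.22 (FDR 0.335 and 0.362 from limma), and 1 was higher, of Tie1, an endothelial receptor kinase, at 0.25 (FDR 0.427 from limma). Of all filtered probes 5.2% were lower and 6.51% higher at that level. The highest values of the list, of Eng and Emcn, were 0.49 and 0.48 (FDR 0.479 and 0.527 from limma). MSC replicate 2, the lowest array for Nos3 and Npr1, had the lowest endothelial score of the MSC samples, -0.23 against 0.01 to 0.23 in the others, and the lowest inner medulla score of all arrays, -0.99. NP replicates 1 and 3 had lower endothelial scores, -0.29 and -0.28, with Nos3 at 9.36 and 9.24. MSC replicate 4 had the highest endothelial score of all arrays, 0.23, with Nos3 at 9.30. The part of cell makeup in the values of Nos3 and the receptors was not tested.

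The blood and fat lists had the widest range of scores over the arrays. The blood list, with probes of Hbb and Alas2, had scores of 0.19 to 1.09 in NP samples and -2.95, 0.61, -1.17 and 0.22 in MSC replicates 1 to 4, with a median log2 fold change of -1.68 and 2 of 3 probes lower at an unadjusted p under 0.05. The fat list scored 2.37 and 1.45 in MSC replicates 3 and 4 and between -1.01 and 0.12 in all other arrays, with 2 of 4 probes higher at an unadjusted p under 0.05. The mesenchymal stromal cell list, of which Itga5 and Thy1 did not pass the filter, had 2 of 5 probes higher at an unadjusted p under 0.05, both of Col1a1, at 0.70 and 1.06 (FDR 0.334 from limma for each). Col1a1 encodes a collagen that kidney fibroblasts make too. Both probes of Itgb1, the surface marker CD29 that the study's methods list for these MSC, were at 0.025 and 0.075 (FDR 0.979 and 0.825 from limma). The lists of podocytes (median -0.30, 0 of 6 probes at that level, lowest score -0.90 in MSC replicate 4), macula densa and thick ascending limb (0.15, 1 of 3 higher), inner medulla (-0.15, 1 of 6 higher) and macrophages and leukocytes (0.24, 0 of 6) overlapped between the groups in score. Of all filtered probes 6.51% were higher at that level. The higher probe of the inner medulla list was that of Aqp1, at 0.24 (FDR 0.417 from limma). Both probes of Slc14a2 were at -0.28 and -0.37, and of the 6 probes 4 were negative and 2 positive. Ptgs2, a macula densa gene, did not pass the filter. The principal cell list had 2 of 6 probes higher, with a median of 0.28, and the proximal tubule list 1 of 7 higher, with a median of 0.15. Of smooth muscle and mesangium, 0 of 8 probes were at that level, with a median of -0.10. The part of these lists in the member values was not tested.

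The pathways around the members were followed by 6 lists with 56 genes, of which 55 were on the array and 41 passed the filter with 53 probes. Of these probes 0 passed the thresholds in limma, 2 were lower and 4 higher at an unadjusted p under 0.05 (3.77% and 7.55%, against 5.2% and 6.51% of all filtered probes). Negative log2 fold changes made up 24 of the 53.

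The supply of arginine and tetrahydrobiopterin, substrate and cofactor of the synthases, had 14 of 15 genes above the filter and a median log2 fold change of 0.01 over 16 probes. Spr, sepiapterin reductase, which makes the final step of tetrahydrobiopterin synthesis, had 1 probe at -0.19 with an unadjusted p of 0.0298 (FDR 0.390 from limma), and 3 of 4 MSC samples below every NP sample. Its other probe was at 0.12, so the probes of Spr had opposite signs. Ddah1, which degrades the inhibitor asymmetric dimethylarginine, was at 17.84 ± 0.21 (SD, n = 5) in NP and 17.82 ± 0.12 (SD, n = 4) in MSC samples.

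The list of synthase partners, proteins that bind a synthase or regulate it, had a median log2 fold change of 0.10 over 18 probes. Its score ranged from -0.26 to -0.0039 in NP samples and from 0.02 to 0.16 in MSC samples, so that every MSC sample was above every NP sample, by a gap of less than the range within either group. It was the 1 list of 17 pathway and marker lists whose scores separated the groups, and the scores of the other 16 overlapped. The score is a description with no test. Of its 18 probes 0 had groups that did not overlap, against 5.28% of all filtered probes. Of the 18 log2 fold changes, 6 were negative and 12 positive. Calm2 and the chaperone genes Hsp90aa1 and Hsp90ab1 each gave 3 of the probes. Named after their values were seen, those of Hsp90aa1 were at 0.40, 0.47 and 0.58, and those of Hsp90ab1 at 0.03, -0.01 and 0.07. Cav1, caveolin 1, which holds Nos3 inactive at the membrane, had a log2 intensity of 11.94 ± 0.28 (SD, n = 5) in NP and 12.56 ± 0.38 (SD, n = 4) in MSC samples, a log2 fold change of 0.62 at an FDR of 0.334 from limma, with 2 MSC samples above every NP sample. Calm2, 1 of 3 genes for the activator calmodulin, had 2 of its 3 probes at an unadjusted p under 0.05, at 0.35 and 0.31 (FDR 0.334 and 0.400 from limma). The chaperone gene Hsp90ab1 was at 16.78 ± 0.05 (SD, n = 5) in NP and 16.81 ± 0.09 (SD, n = 4) in MSC samples by probe A_64_P021862. None of these differences passed the FDR.

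Cyclic GMP effectors, the cyclases, kinases and phosphodiesterases downstream, had 10 filtered probes with a median of -0.21. The kinases Prkg1 and Prkg2 did not pass the filter, so these probes are of cyclases, phosphodiesterases and the kinase substrates Vasp and Mrvi1. Gucy1a2 and Pde3a did not pass either. The probe with the most negative value of all 6 lists was that of Pde1a, a phosphodiesterase activated by calmodulin. It had 11.61 ± 0.89 (SD, n = 5) in NP and 10.35 ± 0.49 (SD, n = 4) in MSC samples, a log2 fold change of -1.26 at an FDR of 0.336 from limma, with 2 MSC samples below every NP sample. The list's score was highest in NP replicate 2, at 0.52, against -0.28 to 0.16 in the other NP and -0.19 to -0.04 in the MSC samples. The probe of Pde2a, another phosphodiesterase, was at -0.20.

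Of the other endothelin genes, Edn3 and Mme passed the filter, at -0.04 and 0.29 with FDRs of 0.955 and 0.467 from limma. Mme encodes neprilysin, which degrades endothelin and natriuretic peptides. Of the other natriuretic peptide genes, Npr2 and Furin passed, at -0.17 and -0.22, while the peptide genes Nppa, Nppb and Nppc did not pass. Among genes that regulate Nos3 and Edn1 or are regulated with them in endothelium, the median was 0.35 over 5 probes, with 1 of them higher at an unadjusted p under 0.05. The list's score was -0.48, 0.37, -0.47, -0.036 and -0.036 in NP replicates 1 to 5 and 0.037 to 0.36 in MSC samples. The groups overlapped, with NP replicate 2 the highest of all arrays and NP replicates 1 and 3 the lowest. Klf2, a flow-sensitive transcription factor that raises Nos3 and lowers Edn1 in cultured endothelium, had 9.28 ± 0.27 (SD, n = 5) in NP and 9.70 ± 0.33 (SD, n = 4) in MSC samples, a log2 fold change of 0.42 at an FDR of 0.411 from limma. Plat, tissue plasminogen activator, was at -0.09.

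**Figure D5:**
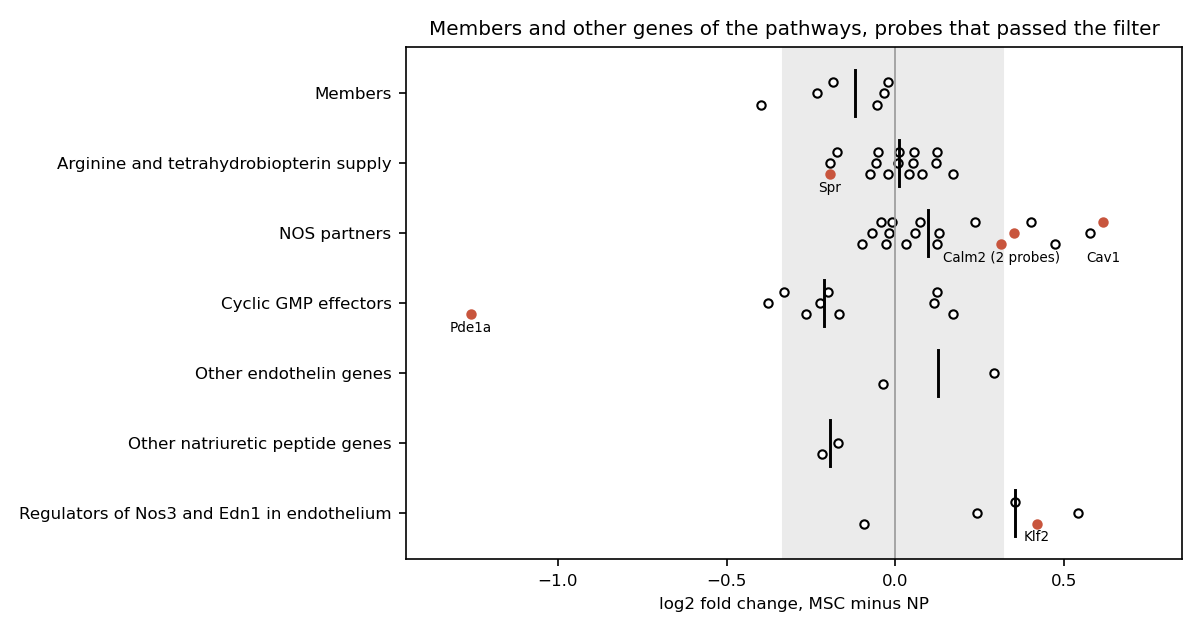
Log2 fold change of MSC over NP samples (x axis) for filtered probes of the members and of the 6 pathway lists (rows), with the median of a row as a vertical line and the 5th to 95th percentile of all filtered probes, -0.33 to 0.32, in grey. Red points have an unadjusted p under 0.05 in limma and carry their gene names; no member is among them, and no probe passed the FDR.

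The probes most like a member across the 9 arrays were found among the 15841 filtered probes by Pearson's r. They were chosen by that likeness, so no test is given. Nearest to Nos3 were Sh2d3c (r = 0.97), Cacnb3 (0.95) and Rasip1 (0.94), which had log2 fold changes of -0.20 to -0.24 themselves. Nearest to Edn1 were Plce1 (0.94), LOC690085 (0.90) and Coro2b (0.89). Nearest to Ednrb were Hsp90ab1 (0.94, by probe A_64_P045716), Plec (0.94) and Zc3h13 (0.93). Nearest to Npr3 were Mettl9 (0.93), Atf2 (0.92) and Pik3ca (0.92). Spearman's rho for these 12 probes was 0.733 to 0.983. The points of each relation share array and slide.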

How the data were processed

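The authors deposited the Agilent Feature Extraction output of each array, with the mean pixel intensity of every spot, and a table of normalized log2 values, which they had made with limma. Here the mean intensity of 62976 spots per array was taken to log2 and passed through cyclic loess anew (limma 3.58.1, R 4.3.3), the scale and normalization that the study's methods name. The mean intensity without background subtraction was chosen here. Control spots and outlier spots were left out and the spots of a probe averaged. The deposited log2 values, which list all 30367 gene probes, correlated with these at a Pearson's r between 0.9999 and 0.99997 over 15841 probes. The methods' filter can be read in several ways, and the reading used was a log2 value above 1.1 times the 95th percentile of the negative controls' on at least 4 arrays. MSC and NP arrays were compared by limma's linear model with empirical Bayes, with Benjamini-Hochberg FDR over all probes of the fit, and by exact permutation tests. Probes were kept apart, where the methods keep 1 per gene.

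The files name all probe positions, on rn4. The exon or UTR a probe lies in was not analysed here. For 12 of 12 member probes the accession carried the same symbol in a RefSeq name table, which was used for names only. Columns of values left unused numbered 0. Members, pathway lists and marker lists were chosen with earlier results of these data known. Besides all member probes, each pathway list names up to 3 probes at an unadjusted p under 0.05 and the probe with the highest mean log2 intensity over all arrays, a rule of choice only, and 3 probes most like Nos3, Edn1, Ednrb and Npr3 are named. The marker genes named were chosen after their values were seen. Scripts were tested on simulated data. Each array is 1 kidney, and the methods describe removal of the left kidney.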

Additional observations from a re-analysis of the deposited data

How the results depend on the processing

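No member probe was called under any of the 25 alternatives. Over all probes the count of calls was 0 except with array weights (2) and within the second slide (4). The count of member probes at an unadjusted p under 0.05 was 0, and it was 1 with array weights and 1 with the slide as a block (Nos3 in both), and 1 with the replicate block (Ece1 A_44_P991864, -0.49, unadjusted p 0.0320, FDR 0.415 from limma). Leaving out single replicates gave 0 to 1 such probes, 1 without NP replicate 1 or 5 (Ece1 A_44_P991864) and 1 without NP replicate 3 (Nos3). In each setting with 1 such probe, 6 member probes were tested. Of all 15841 filtered probes, 2594 had such a p with array weights, 1998 with the slide block and 1794 with the replicate block. Without NP replicate 1, 3 or 5 these counts over all filtered probes were 2599, 1431 and 1915. Nos2, Nos3, Edn1, Ece1 A_44_P991864 and Npr1 kept a negative log2 fold change under all alternatives. Others reversed. Ednra A_64_P158422 was 0.032 with array weights and 0.12 within the second slide, where Ednra A_64_P109657 was 0.027. Ednrb was 0.11 within the first slide and 0.0022 with the replicate block. With single replicates left out, the log2 fold change ran from -0.090 to 0.052 for Ece1 A_42_P839121, from -0.058 to 0.064 for Ednra A_64_P158422, from -0.21 to -0.049 for Ednra A_64_P109657, from -0.12 to 0.10 for Ednrb and from -0.13 to 0.0084 for Npr3. The causes were not tested. The deviations of same-numbered arrays had correlations of 0.20, 0.32, -0.35 and 0.05. These values alone cannot show whether the replicate numbers of the titles pair the samples. The block was fitted on the 8 arrays that share a number. Signal near the negative controls limits Nos1, Nos2, Edn1, Ednra and Npr3. The number of kidneys leaves intervals that reach past a fold change of 1.5 for Ece1 A_44_P991864 and Npr1.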
